A study of Mus musculus with 12 samples.

Results

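The integrin and cadherin genes of the mouse kidney were examined across 3 treatment groups. The members were the rows of the deposited table whose symbol begins with Itga, is Itgb followed by 1 digit, or is Cdh followed by digits, leaving out Itgam, Itgax and Cdh5. This gave 44 of 19036 genes: 16 integrin alpha chains, 8 integrin beta chains and 20 cadherins. All 3 groups were C57BL/6 mice, an inbred laboratory strain, labelled as biological replicates with 4 libraries each, and kidneys were taken 72 h after the injection. Combination mice received 84-B10 at 15 mg/kg for 48 h before cisplatin at 25 mg/kg, cisplatin mice received cisplatin at 25 mg/kg, and vehicle mice received saline; cisplatin and saline were injected into the peritoneum. The labels disagree on whether cisplatin mice also had the 84-B10 pretreatment, and they say that treatment groups went on to receive 84-B10 daily. The sources used here do not give age, sex or genetic changes. Cisplatin is a platinum-based cancer drug toxic to kidney tubules, and 84-B10 is a compound known here only by its code name. The comparisons ask what cisplatin did to these genes and, from the series title, whether 84-B10 altered that.

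Integrins are receptors made of an alpha and a beta chain that join the extracellular matrix to the actin cytoskeleton. The choice of chains sets the ligand: α3β1, α6β1 and α6β4 bind laminins of the basement membrane, α5β1 and the αv integrins bind fibronectin and other proteins with an RGD motif, and αvβ6 and αvβ8 bind and activate latent TGF-beta. Classical cadherins are calcium-dependent receptors that join neighbouring cells and hold catenins on their cytoplasmic side. Apart from these, Cdh16, called kidney-specific or Ksp-cadherin, lies in the kidney on the basolateral side of tubular epithelium.

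Expression was read as FPKM, fragments scaled by the authors to transcript length and library size. Levels can be compared between genes because FPKM are per length. Estimated count totals were 17.47 to 18.17 M in combination libraries, 17.74 to 18.15 M in the 2 cisplatin libraries with a named count column, and 15.76 to 16.52 M in vehicle libraries. The tissue label matched its markers: the summed FPKM of 5 proximal tubule markers was 811.9 to 1686 in combination libraries, 709.5 to 1413 in cisplatin libraries and 5289 to 5537 in vehicle libraries, and none of the 5 was at 0 in all libraries. For 5 loop and distal tubule markers the sums were 182 to 291.6, 253.3 to 497.7 and 1142 to 1252, and for 5 collecting duct markers 321.6 to 520.1, 268.1 to 341.5 and 190.2 to 238.8, in the same order of groups. All 5 proximal tubule and all 5 loop and distal markers passed as lower in cisplatin than in vehicle kidneys. Of the 5 collecting duct markers, 2 passed as higher and 3 as lower. Aqp2, 1 of the 2 higher, averaged 319.2, 233.7 and 108.3 FPKM in combination, cisplatin and vehicle kidneys. Over all genes tested, 56.3% passed as higher and 21.8% as lower in this comparison. In bulk tissue, fewer cells of a type and less RNA per cell cannot be told apart.

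The promoter windows of αv and of those beta partners that RefSeq matched are shown first, because these genes share an alpha chain and took different courses in the 3 groups. Each is the 120 bases before an annotated transcription start in RefSeq on GRCm38.p6, read 5′ to 3′ on the gene's strand. Capitals mark CACCTG, the E-box bound by Snail and ZEB repressors, or GGAATG, the core of the TEAD motif.
Itgav, chr2:83724277-83724396, plus strand: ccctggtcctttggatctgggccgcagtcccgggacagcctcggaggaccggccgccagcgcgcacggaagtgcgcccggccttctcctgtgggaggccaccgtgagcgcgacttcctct
Itgb1, chr8:128685534-128685653, plus strand: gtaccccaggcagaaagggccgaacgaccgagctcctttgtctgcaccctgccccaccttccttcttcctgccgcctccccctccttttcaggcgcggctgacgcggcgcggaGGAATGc
Itgb5, chr16:33829545-33829664, plus strand: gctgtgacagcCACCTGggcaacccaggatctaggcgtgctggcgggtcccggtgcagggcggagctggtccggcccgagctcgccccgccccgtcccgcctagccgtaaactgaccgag
Itgb6, upstream start, chr2:60722604-60722723, minus strand: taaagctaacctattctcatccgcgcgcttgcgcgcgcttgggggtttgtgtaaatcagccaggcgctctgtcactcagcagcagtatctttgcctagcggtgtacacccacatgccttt
Itgb6, downstream start, chr2:60673694-60673813, minus strand: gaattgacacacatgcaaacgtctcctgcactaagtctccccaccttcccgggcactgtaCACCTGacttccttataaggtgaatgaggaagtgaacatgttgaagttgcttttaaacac
Itgb8, chr12:119238277-119238396, minus strand: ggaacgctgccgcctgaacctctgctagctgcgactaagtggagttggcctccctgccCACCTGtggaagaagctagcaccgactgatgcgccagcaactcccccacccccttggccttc

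Of the 44 members, 27 matched the promoter table, with 31 annotated starts, and 13 of these were among the 23 that entered the test below. Searched on both strands over the 250 bases before each start, CACCTG was present at 8 of 31 member starts against 17.2% of all 32851 promoters. GGAATG was present at 4 of 31 against 12.6%, the AP-1 letters TGACTCA at 0 of 31 against 4.46%, and the TATA box letters TATAAA at 0 of 31 against 12.4%. None of these words contains another. In the windows printed above, CACCTG stood before Itgb5, Itgb8 and the downstream start of Itgb6, genes whose levels differed in their course, and GGAATG stood before Itgb1. A match is a description of the letters, and the deposited data hold no binding or start site measurements.

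A gene entered the test if its FPKM was at least 1 in at least 4 of the 12 libraries, which 23 members met: 9 alpha chains, 7 beta chains and 7 cadherins. Cdh24, Itgb3 and Itgb4 met it only through combination and cisplatin libraries, Cdh6 only through 1 combination and 3 cisplatin libraries, and Itga8 only through vehicle libraries, so these 5 entered because of the groups in which they were high. Differences below are in log2(FPKM + 1) with the standard error, and passing means a p under 0.05 from limma after Benjamini-Hochberg adjustment over all 12428 genes tested.

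In cisplatin against vehicle kidneys, 19 of the 23 members tested rose, 2 fell and 2 did not pass, and of the 19 that rose Cdh6, Itga2b, Itga9 and Itgb2 turned sign under quantile normalization. The 19 include Cdh24, Itgb3, Itgb4 and Cdh6, and the 2 include Itga8. The filter favoured the direction of these genes, so they add no independent weight to the counts and the median here. Over all genes tested, 78.1% passed, 56.3% as higher and 21.8% as lower, so most genes of the kidney moved in this comparison. The median difference of the 23 members was 0.73, beside 0.26 over all genes tested. The groups did not overlap for 19 members, 17 higher and 2 lower, where 71.6% of all genes tested had no overlap, 52% higher and 19.6% lower. Alpha chains together summed to 161.6 ± 8.44 FPKM in combination kidneys, 159.4 ± 8.73 FPKM in cisplatin kidneys and 47.2 ± 1.43 FPKM in vehicle kidneys (SD, n = 4 each). Beta chains summed to 185.0 ± 5.55, 188.6 ± 8.31 and 98.23 ± 2.90 FPKM in the same groups, and cadherins, most of whose sum is Cdh16, to 391.9 ± 19.4, 376.1 ± 17.6 and 450.0 ± 19.8 FPKM.

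How many members rose depends in part on scaling, because the median of all genes was itself above 0. With median-of-ratios scaling the median of all genes was 0.01 and the split of passing genes was 4618 higher and 4602 lower, in place of 6999 and 2711. The members then divided into 16 higher and 4 lower. Differences relative to the median of all genes are given below for the main genes.

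**Figure D1:**
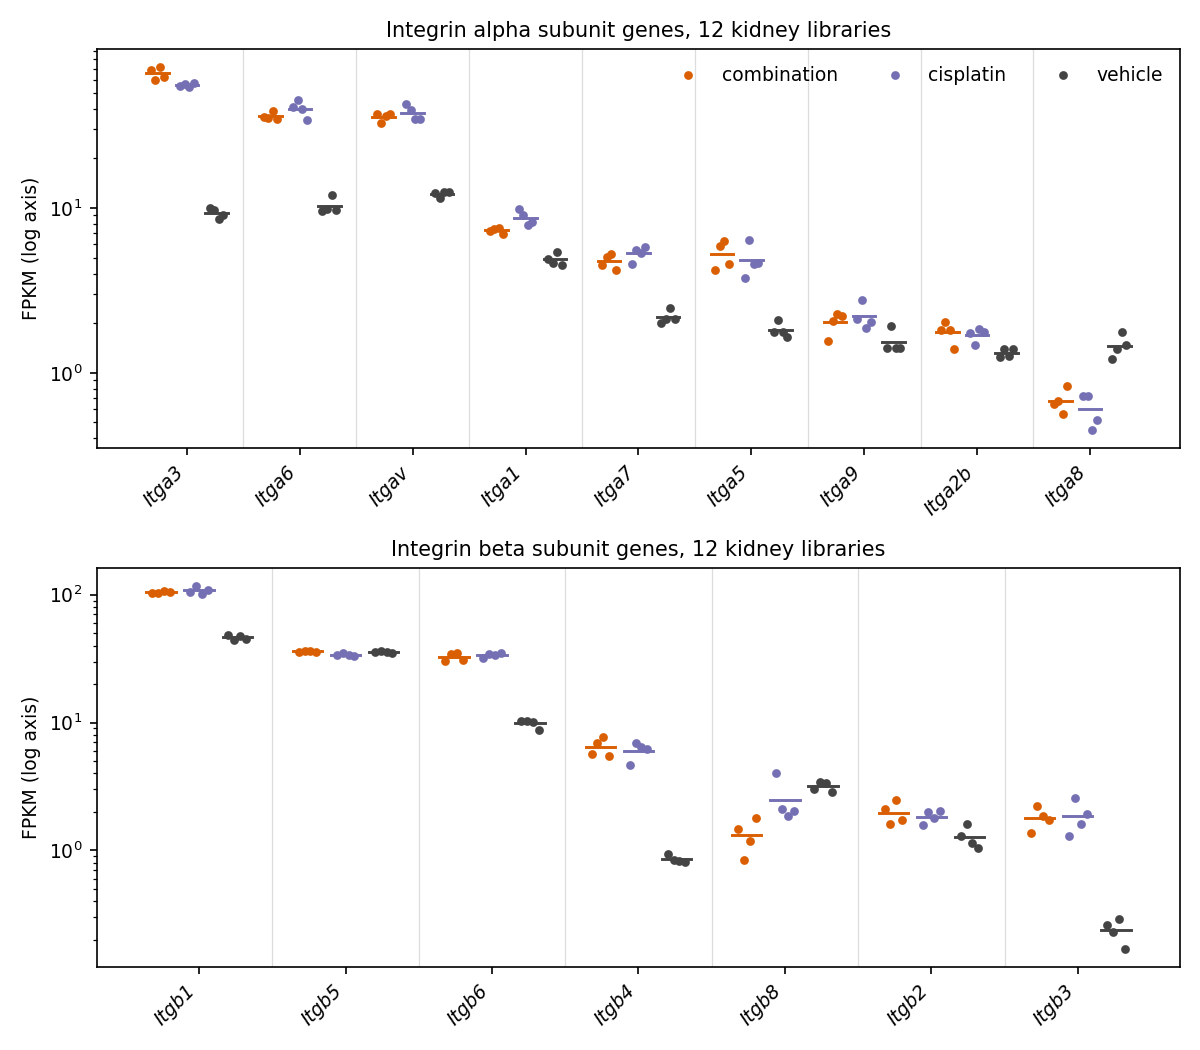
FPKM on a log axis of the 9 alpha chains (top) and 7 beta chains (bottom) that entered the test, with 1 point per library and a line at the mean of each group of 4. Combination and cisplatin points lie together above vehicle for Itga3, Itga6, Itgav, Itgb1, Itgb6 and Itgb4, while Itgb5 is level and Itga8 is lower than in vehicle. Itgb8 is lower than in vehicle in all combination libraries, while its cisplatin points overlap vehicle, with cisplatin library 1 above every vehicle library. For Itgb5 and Itgb8 in cisplatin against vehicle kidneys, whether the difference passes depends on scaling, and for Itgb8 also on 1 library.

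Chains of laminin receptors are given first. Itga3, the alpha chain of α3β1, a major laminin receptor of renal epithelium and podocytes, read 68.94, 59.83, 71.14 and 61.98 FPKM in combination libraries, 54.75, 56.65, 54.39 and 56.93 FPKM in cisplatin libraries and 10.02, 9.75, 8.56 and 9.02 FPKM in vehicle libraries. Every treated library lay above every vehicle library, and every combination library above every cisplatin library. In cisplatin against vehicle kidneys Itga3 rose by 2.46 ± 0.06 (adjusted p = 1.03e-12), which is 2.20 above the median of all genes and 5.96-fold as a ratio of mean FPKM. Itga6, whose chain pairs with β1 or β4, read 35.42, 35.10, 38.61 and 34.75 FPKM in combination libraries, 40.93, 45.04, 39.71 and 34.20 FPKM in cisplatin libraries and 9.58, 9.87, 11.98 and 9.68 FPKM in vehicle libraries. The vehicle libraries lay apart below all 8 others, and the other groups overlapped. Itga6 rose by 1.86 ± 0.08 in cisplatin against vehicle kidneys (adjusted p = 2.62e-10), 1.60 above the median of all genes.

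Itgb4, the long-tailed beta chain of hemidesmosomes that pairs with α6, read 5.63, 6.98, 7.67 and 5.46 FPKM in combination libraries, 4.67, 6.91, 6.45 and 6.16 FPKM in cisplatin libraries and 0.94, 0.85, 0.83 and 0.81 FPKM in vehicle libraries. It was below 1 FPKM in each vehicle library and above 4 FPKM in each other library. It rose by 1.91 ± 0.11 in cisplatin against vehicle kidneys (adjusted p = 3.05e-09). Its level stayed far under that of its partner: the ratio of Itgb4 to Itga6 within a library averaged 0.178 ± 0.0235 in combination kidneys, 0.153 ± 0.0279 in cisplatin kidneys and 0.0843 ± 0.0118 in vehicle kidneys (SD, n = 4 each). Itga7, a laminin receptor chain best known from muscle, averaged 4.76, 5.31 and 2.18 FPKM in combination, cisplatin and vehicle kidneys and rose by 0.99 ± 0.08 in cisplatin against vehicle kidneys (adjusted p = 8.25e-08).

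Itgb1, the beta chain shared by most of these alpha chains, was the most abundant integrin gene in each group by mean FPKM. It read 102.28, 102.75, 106.79 and 104.42 FPKM in combination libraries, 105.33, 116.23, 101.57 and 108.75 FPKM in cisplatin libraries and 48.62, 44.54, 47.47 and 44.96 FPKM in vehicle libraries. All vehicle libraries were below all others, with means of 104.1 FPKM in combination kidneys, 108.0 FPKM in cisplatin kidneys and 46.4 FPKM in vehicle kidneys. It rose by 1.20 ± 0.05 in cisplatin against vehicle kidneys (adjusted p = 1.3e-10), 0.94 above the median of all genes. Itga3 rose more than Itgb1: their ratio within a library was 0.582 to 0.674 in combination libraries, 0.487 to 0.535 in cisplatin libraries and 0.180 to 0.219 in vehicle libraries. A scaling factor for a whole library leaves these ratios as they are, and they were chosen after the values were seen, so they are given as a description.

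Collagen, fibronectin and tenascin receptor chains follow. Itga1, a collagen receptor chain, averaged 7.30 FPKM in combination kidneys, 8.72 FPKM in cisplatin kidneys and 4.87 FPKM in vehicle kidneys, and rose by 0.73 ± 0.07 in cisplatin against vehicle kidneys (adjusted p = 4.82e-07). Itga5, the fibronectin receptor chain, averaged 5.25, 4.83 and 1.82 FPKM in the same order and rose by 1.03 ± 0.13 (adjusted p = 7.09e-06). Itga9, whose integrin binds tenascin-C and osteopontin, averaged 2.03, 2.20 and 1.54 FPKM; it passed at 0.33 ± 0.11 (adjusted p = 0.0112), but cisplatin and vehicle libraries overlapped and the sign turned to -0.02 under quantile normalization. Itga2, another collagen receptor chain, did not enter the test. Named after its values were seen, it ran from 0.43 to 0.68 FPKM in combination libraries, 0.44 to 0.59 in cisplatin libraries and 0.05 to 0.15 in vehicle libraries.

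Itga8 was the alpha chain that fell. It pairs with β1, binds nephronectin and is found in kidney mesenchyme during development and in mesangial cells. Its libraries ran from 0.56 to 0.83 FPKM in combination kidneys, 0.45 to 0.72 FPKM in cisplatin kidneys and 1.21 to 1.76 FPKM in vehicle kidneys, with no vehicle library as low as any other. It fell by 0.62 ± 0.09 in cisplatin against vehicle kidneys (adjusted p = 2.29e-05). Nephronectin itself, Npnt, averaged 26.23, 24.97 and 24.86 FPKM in the same order and did not pass (0.00 in cisplatin against vehicle, adjusted p = 0.96), although it was lower by 0.28 with median-of-ratios scaling. Of the 5 fibroblast and mural markers, 4 were higher and 1, Acta2, lower in cisplatin than in vehicle kidneys. Over all genes tested these shares were 56.3% and 21.8%.

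The αv integrins were the most mixed group. Itgav read 37.05, 32.93, 36.17 and 37.12 FPKM in combination libraries, 42.46, 39.44, 34.52 and 34.58 FPKM in cisplatin libraries and 12.27, 11.54, 12.41 and 12.49 FPKM in vehicle libraries. All vehicle libraries lay below all others, and it rose by 1.55 ± 0.07 in cisplatin against vehicle kidneys (adjusted p = 2.08e-10), 1.29 above the median of all genes. Itgb6, an epithelial beta chain whose αvβ6 integrin activates latent TGF-beta, read 30.47, 34.57, 35.22 and 30.91 FPKM in combination libraries, 31.79, 34.60, 33.71 and 35.14 FPKM in cisplatin libraries and 10.36, 10.37, 10.05 and 8.77 FPKM in vehicle libraries. Vehicle libraries again stood below all others, and Itgb6 rose by 1.68 ± 0.07 (adjusted p = 5.84e-11). Itgb3, the beta chain of the vitronectin receptor αvβ3 and of the platelet integrin, read 1.37, 2.24, 1.85 and 1.73 FPKM in combination libraries, 1.29, 2.59, 1.61 and 1.94 FPKM in cisplatin libraries and 0.26, 0.23, 0.29 and 0.17 FPKM in vehicle libraries. It rose by 1.19 ± 0.13 (adjusted p = 1.25e-06), from estimated counts that ran from 16.1 to 234 over the 10 libraries with named count columns.

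Itgb5, the beta chain of αvβ5, did not follow them. It read 35.40, 36.43, 36.55 and 35.80 FPKM in combination libraries, 33.97, 34.89, 34.04 and 32.94 FPKM in cisplatin libraries and 35.42, 36.19, 35.60 and 34.80 FPKM in vehicle libraries. All 12 values lie close together, and the difference in cisplatin against vehicle kidneys was -0.06 ± 0.04 (adjusted p = 0.154, 95% interval -0.15 to 0.02). Relative to the median of all genes it was -0.32, and it passed as lower with median-of-ratios scaling (-0.35), quantile normalization (-0.20) and edgeR on the estimated counts (-0.43). The ratio of Itgb6 to Itgb5 within a library, which a scaling factor for the library leaves as it is, averaged 0.909 ± 0.0547 in combination kidneys, 0.996 ± 0.0538 in cisplatin kidneys and 0.278 ± 0.0180 in vehicle kidneys (SD, n = 4 each). In vehicle kidneys Itgb5 was thus the more abundant of these partners by several fold, and in the cisplatin libraries both stood near the same FPKM.

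Itgb8, whose αvβ8 integrin also activates latent TGF-beta, is singled out after its values were seen. It read 1.47, 0.85, 1.19 and 1.80 FPKM in combination libraries, 4.00, 2.10, 1.87 and 2.03 FPKM in cisplatin libraries and 3.00, 3.44, 3.35 and 2.88 FPKM in vehicle libraries. Each combination library was below each cisplatin and vehicle library, and cisplatin library 1 was the highest of all 12. In cisplatin against vehicle kidneys the difference was -0.29 ± 0.16 and did not pass (adjusted p = 0.121), but without cisplatin library 1 it was -0.47 and passed (adjusted p = 0.00252). With all 12 libraries it also passed as lower with median-of-ratios scaling (-0.51) and quantile normalization (-0.66), but not with TPM (-0.29). In edgeR, which lacked cisplatin libraries 1 and 2, it passed as lower (-0.97). In combination against vehicle kidneys Itgb8 fell by 0.86 ± 0.16 (adjusted p = 0.000282). The ratio of Itgb8 to Itgb5 within a library was 0.0233 to 0.0503 in combination libraries, 0.0549 to 0.118 in cisplatin libraries and 0.0828 to 0.0951 in vehicle libraries.

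**Figure D2:**
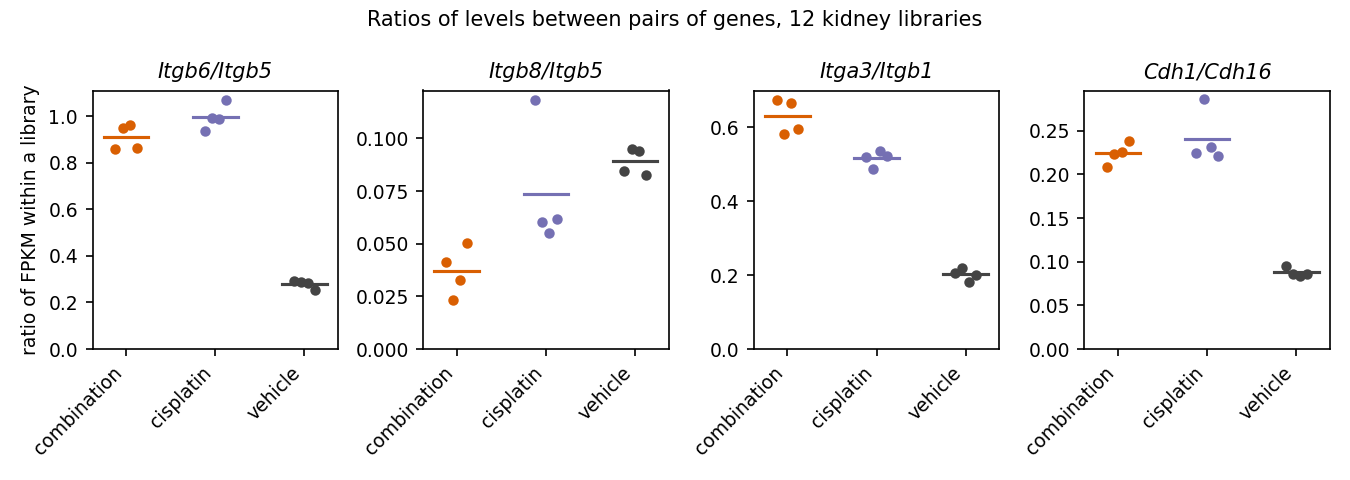
Ratios of FPKM within each library (vertical axes from 0), with 1 point per library and a line at the group mean of 4. Itgb6 over Itgb5, Itga3 over Itgb1 and Cdh1 over Cdh16 are higher in all combination and cisplatin libraries than in all vehicle libraries, and Itgb8 over Itgb5 is lowest in the combination libraries, with cisplatin library 1 at 0.118.

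Chains of blood cell integrins were low. Itgb2, the beta chain of leukocyte integrins, averaged 1.98 FPKM in combination kidneys, 1.84 FPKM in cisplatin kidneys and 1.27 FPKM in vehicle kidneys; it passed at 0.33 ± 0.10 (adjusted p = 0.0104) but not with median-of-ratios scaling (0.15), and it was -0.02 under quantile normalization. Beside it, the summed FPKM of 16 leukocyte markers was 95.2 to 113.2 in combination libraries, 82.87 to 104.9 in cisplatin libraries and 16.66 to 19.18 in vehicle libraries, with Cd68, a lysosomal protein of phagocytes, at 77.39, 64.13 and 1.96 FPKM, and the pan-leukocyte gene Ptprc was lower in cisplatin than in vehicle kidneys (1.01 against 1.44 FPKM). Of the 9 leukocyte markers tested, 5 were higher and 1 lower in cisplatin kidneys, near the 56.3% higher over all genes tested, where 21.8% were lower. None of the 16 was at 0 in all libraries. Itga2b, the platelet integrin alpha chain, averaged 1.77, 1.71 and 1.33 FPKM in combination, cisplatin and vehicle kidneys and passed at 0.22 ± 0.08 (adjusted p = 0.023), with the sign turned to -0.12 under quantile normalization. That call was also lost without cisplatin library 3 or 4, or vehicle library 1 or 3 (0.19 to 0.21). The 6 platelet markers summed to 2.08 to 3.65, 2.70 to 3.47 and 1.25 to 1.93 FPKM in the same groups. The part of blood cells in these results was not tested.

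**Figure D3:**
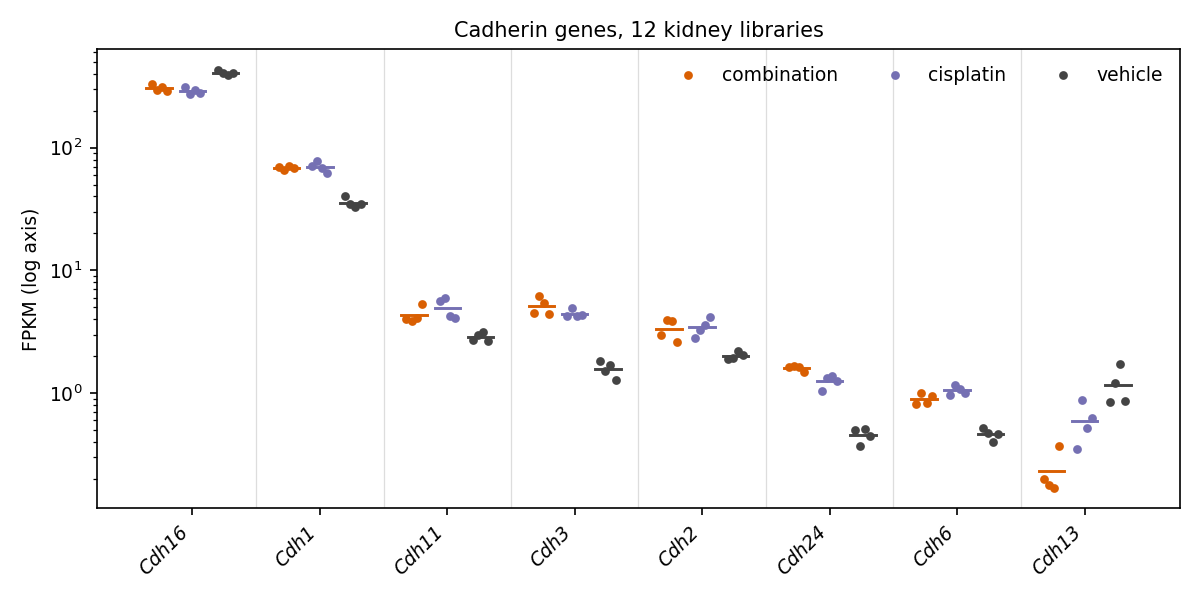
FPKM on a log axis of the 7 cadherins that entered the test and of Cdh13, which did not, with 1 point per library and a line at the mean of each group of 4. Cdh16 is lower in combination and cisplatin libraries than in vehicle libraries, Cdh1, Cdh3, Cdh2, Cdh11, Cdh24 and Cdh6 are higher in FPKM, with the sign for Cdh6 turned under quantile normalization, and Cdh13 is lowest in combination libraries.

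Among cadherins the kidney-specific gene fell while the 6 others that entered rose in FPKM, Cdh6 with its sign turned under quantile normalization. Cdh16 was the most abundant member of all in each group. It read 330.48, 295.09, 314.05 and 288.74 FPKM in combination libraries, 313.62, 271.92, 294.37 and 280.77 FPKM in cisplatin libraries and 427.94, 402.85, 387.28 and 402.44 FPKM in vehicle libraries. All vehicle libraries were above all others, and Cdh16 fell by 0.48 ± 0.06 in cisplatin against vehicle kidneys (adjusted p = 8.33e-06), which is 0.716 times the vehicle mean. The proximal and distal tubule markers fell with it, by more: Slc34a1, the proximal phosphate transporter, was lower by 2.88 and Umod, which encodes uromodulin, by 1.72. Their part in the change of Cdh16 was not tested.

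Cdh1, E-cadherin, the main classical cadherin of epithelia, read 69.00, 65.84, 71.07 and 68.67 FPKM in combination libraries, 70.69, 77.83, 68.06 and 62.05 FPKM in cisplatin libraries and 40.53, 34.75, 32.58 and 34.53 FPKM in vehicle libraries. No vehicle library reached the lowest of the others, and Cdh1 rose by 0.95 ± 0.07 in cisplatin against vehicle kidneys (adjusted p = 6.01e-08), 0.69 above the median of all genes. The ratio of Cdh1 to Cdh16 within a library was 0.209 to 0.238 in combination libraries, 0.221 to 0.286 in cisplatin libraries and 0.0841 to 0.0947 in vehicle libraries. Cdh3, P-cadherin, the gene next to Cdh1 in the RefSeq order, read 4.53, 6.20, 5.41 and 4.44 FPKM in combination libraries, 4.24, 4.93, 4.28 and 4.35 FPKM in cisplatin libraries and 1.81, 1.52, 1.70 and 1.29 FPKM in vehicle libraries. It rose by 1.08 ± 0.10 (adjusted p = 1.87e-07), and every vehicle library was below every other library.

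The remaining cadherins were low. Cdh2, N-cadherin, the classical cadherin of the proximal tubule, averaged 3.36 FPKM in combination kidneys, 3.45 FPKM in cisplatin kidneys and 2.02 FPKM in vehicle kidneys and rose by 0.55 ± 0.11 in cisplatin against vehicle kidneys (adjusted p = 0.000402), a call lost under quantile normalization (0.19, adjusted p = 0.161). Cdh11, a mesenchymal cadherin, averaged 4.33, 4.97 and 2.88 FPKM and rose by 0.61 ± 0.11 (adjusted p = 0.000178), a call lost in edgeR (0.27, adjusted p = 0.0596). Beside Cdh11, the summed FPKM of 5 fibroblast and mural markers was 50.39 to 66.53 in combination libraries, 43.4 to 88.3 in cisplatin libraries and 31.71 to 41.82 in vehicle libraries, and their part was not tested. Cdh24 averaged 1.60, 1.25 and 0.458 FPKM and rose by 0.63 ± 0.07 (adjusted p = 1.74e-06), a call lost under quantile normalization (0.15, adjusted p = 0.0864). Cdh6, K-cadherin, expressed in the developing proximal nephron, averaged 0.895, 1.06 and 0.463 FPKM and passed at 0.49 ± 0.07 (adjusted p = 1.24e-05), with the sign turned to -0.02 under quantile normalization.

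Of the 21 members that did not enter, Cdh13 and Itgb7 reached 1 FPKM in some library. Cdh13, T-cadherin, a GPI-anchored cadherin of vessels, read 0.20, 0.18, 0.17 and 0.37 FPKM in combination libraries, 0.35, 0.88, 0.52 and 0.63 FPKM in cisplatin libraries and 0.85, 1.21, 1.73 and 0.87 FPKM in vehicle libraries. Combination libraries lay below all vehicle libraries, and cisplatin libraries overlapped both. Without the filter its difference was -0.43 ± 0.13 in cisplatin against vehicle kidneys (adjusted p = 0.0108). The 5 endothelial markers beside it summed to 43.26 to 55.21, 44.37 to 60.69 and 54.54 to 73.58 FPKM. Of these 5, 1 was higher and 3 lower in cisplatin than in vehicle kidneys, beside 56.3% and 21.8% of all genes tested. The part of vessels was not tested. Itgb7, a lymphocyte beta chain, ran from 0.52 to 0.74 FPKM in combination libraries, 0.44 to 0.68 FPKM in cisplatin libraries and 0.59 to 1.26 FPKM in vehicle libraries. Cdh4, R-cadherin, named after its values were seen, ran from 0 to 0.04, 0.03 to 0.05 and 0.27 to 0.39 FPKM in the same order, lower by 0.36 ± 0.03 in cisplatin against vehicle kidneys without the filter (adjusted p = 1.74e-07).

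**Figure D4:**
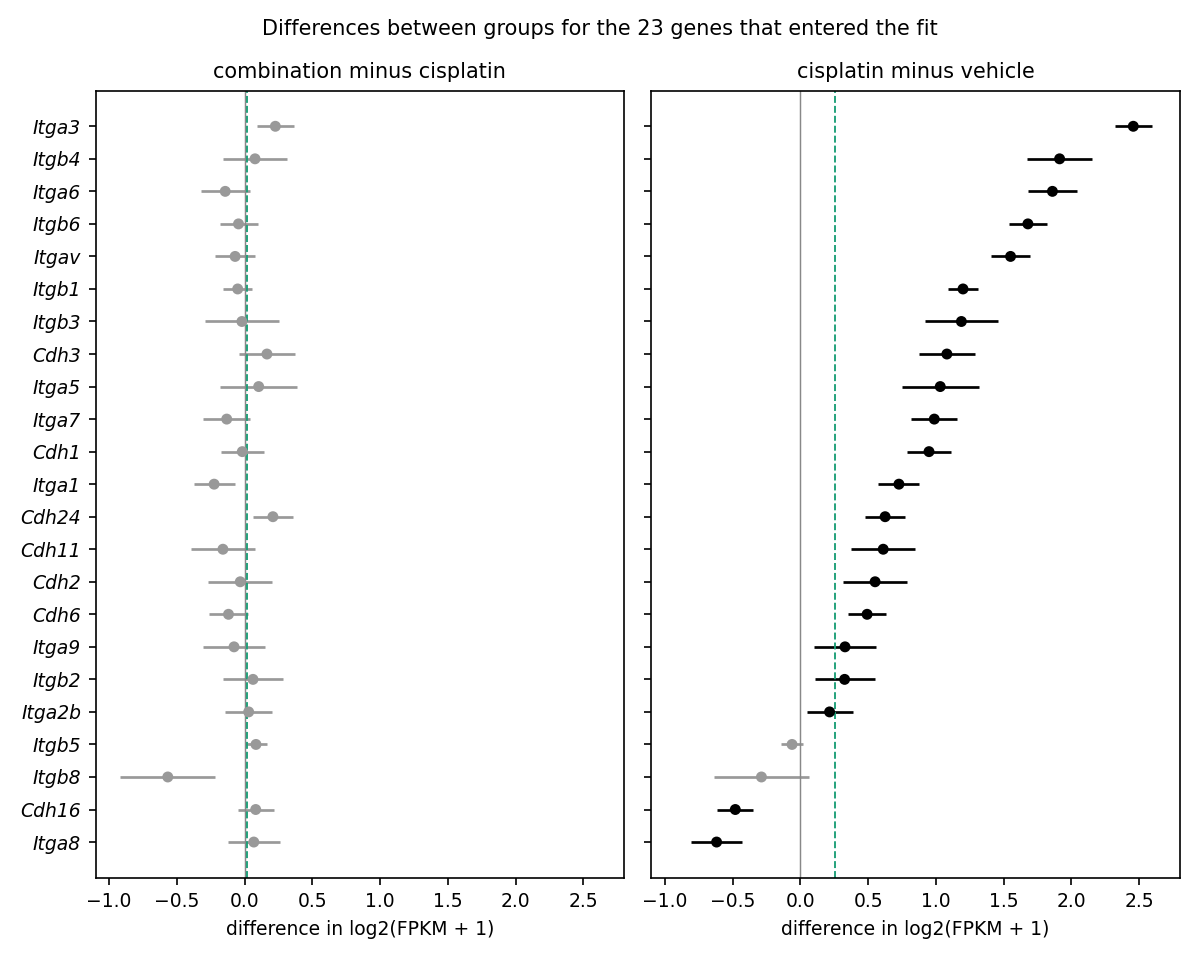
Difference in log2(FPKM + 1) with its 95% interval for the 23 members tested, combination minus cisplatin (left) and cisplatin minus vehicle (right); black marks a pass at adjusted p under 0.05, grey none, and the dashed line is the median of all genes tested. In the right panel the points run from -0.62 for Itga8 to 2.46 for Itga3, in the left panel from -0.57 for Itgb8 to 0.23 for Itga3; with other scalings Itgb5 and Itgb8 pass as lower in the right panel, and Cdh6, Itga2b, Itga9 and Itgb2 turn sign under quantile normalization.

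In combination against cisplatin kidneys, 0 of the 23 members passed in limma, and 0 passed in edgeR on the estimated counts of 10 libraries. Over all genes tested 2.21% passed, 0.435% as higher and 1.78% as lower. The median difference of the members was -0.02, beside 0.02 over all genes tested. The groups did not overlap for 5 members, 3 higher and 2 lower, where 8.24% of all genes tested had no overlap, 4.01% higher and 4.23% lower; these 5 are named after their values were seen. Itga3 was higher in combination kidneys by 0.23 ± 0.06 (65.47 against 55.68 FPKM, adjusted p = 0.0948, 95% interval 0.09 to 0.36). Cdh24 was higher by 0.21 ± 0.07 (adjusted p = 0.166) and Itgb5 by 0.08 ± 0.04 (adjusted p = 0.337). Itgb8 was lower, at -0.57 ± 0.16 (1.33 against 2.50 FPKM, adjusted p = 0.11, 95% interval -0.92 to -0.22), and -0.38 without cisplatin library 1 (adjusted p = 0.174). Itga1 was lower, at -0.23 ± 0.07 (adjusted p = 0.144).

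For the abundant members the intervals of this comparison were narrow. The 95% interval of the difference was -0.16 to 0.06 for Itgb1, -0.18 to 0.10 for Itgb6, -0.22 to 0.08 for Itgav, -0.18 to 0.14 for Cdh1 and -0.05 to 0.22 for Cdh16, each of which contains 0. It was -0.32 to 0.04 for Itga6 and -0.16 to 0.32 for the less abundant Itgb4. For Itga3 the interval was 0.09 to 0.36, above 0, and for Itgb5 0.00 to 0.17, and neither passed after adjustment. Differences within these bounds remain compatible with the 4 libraries a group, so a member that did not pass is not evidence that the groups are equal.

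In combination against vehicle kidneys, 19 of the 23 members tested were higher, 3 lower and 1, Itgb5, did not pass, where 79.2% of all genes tested passed, 56.6% as higher and 22.6% as lower. No overlap was seen for 20 members, 17 higher and 3 lower, beside 74.8% of all genes tested, 53.9% higher and 20.9% lower. The 3 lower genes were Cdh16 at -0.40 ± 0.06, Itga8 at -0.55 ± 0.09 and Itgb8. Itga8 among the lower genes, and Cdh24, Itgb3, Itgb4 and Cdh6 among the higher, entered the test because of the groups in which they were high. This comparison and that of cisplatin with vehicle share the vehicle libraries. Itga3 was higher by 2.68 here and by 2.46 there, Itgb4 by 1.99 and 1.91, Itga6 by 1.72 and 1.86, Itgb6 by 1.63 and 1.68, and Itgav by 1.48 and 1.55.

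Genes that work with these receptors were read from lists of partners. Of 13 catenins and armadillo proteins, some of which bind the cytoplasmic tail of cadherins, 9 were tested. In cisplatin against vehicle kidneys 8 were higher and 1 lower, beside 56.3% and 21.8% of all genes tested. Their median was 0.57 beside 0.26 over all genes. Pkp2 and Pkp3, plakophilins of the desmosome, rose by 1.36 (33.35, 32.98 and 12.20 FPKM in combination, cisplatin and vehicle kidneys) and 1.02 (15.50, 15.31 and 7.02 FPKM). Pkp4, an armadillo protein of adherens junctions, fell by 0.83 (43.0, 52.28 and 93.72 FPKM). It was also lower in combination than in cisplatin kidneys, at -0.27 (adjusted p = 0.0454), a call lost in 16 of the alternatives tried, with adjusted p up to 0.15, among them leaving out any library other than cisplatin library 2. Among the 8 higher genes, beta-catenin (Ctnnb1) and Arvcf turned sign with median-of-ratios scaling, Arvcf also under quantile normalization, and Ctnnd1 in edgeR on 10 libraries, where Ctnnb1 was lower by 0.17; these 3 are named after their values were seen. Of 9 desmosomal cadherins, 2 were tested: Dsg2 rose by 1.05 (3.87, 4.09 and 1.45 FPKM) and Dsc2 by 0.36, the sign of Dsc2 turning under quantile normalization.

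**Figure D5:**
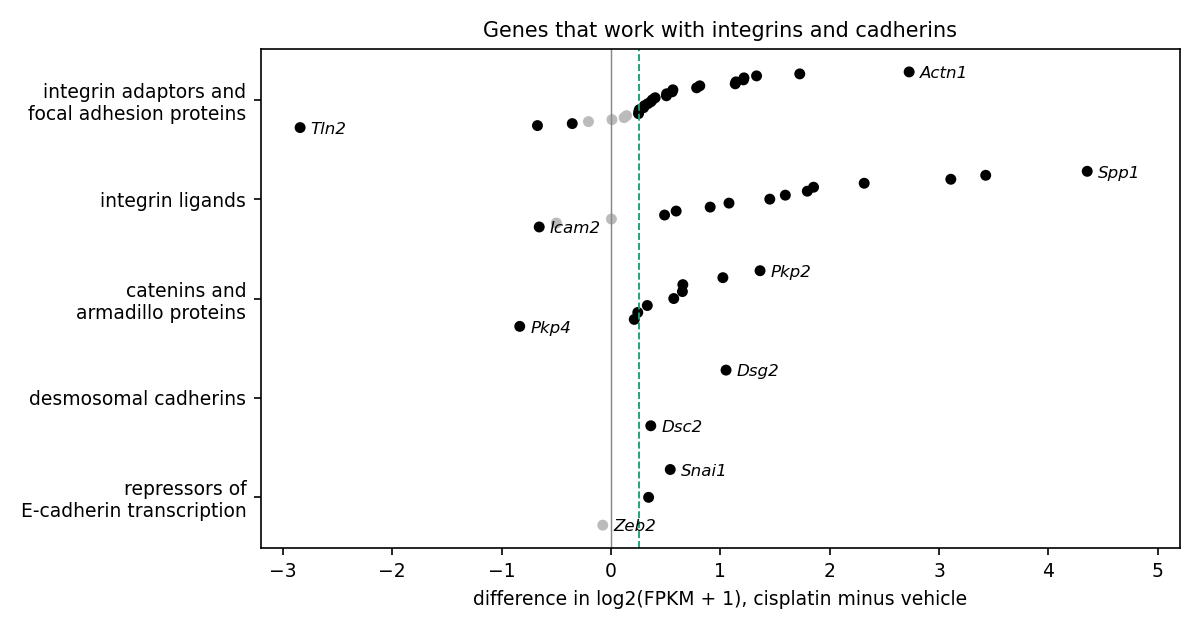
Difference in log2(FPKM + 1), cisplatin minus vehicle, for each tested gene of 5 lists of partners, 1 point per gene, ordered by value within a list; black passed at adjusted p under 0.05, grey did not, and the dashed line is the median of all genes tested. Integrin ligands reach 4.35 (Spp1), and among the adaptors Tln2 lies at -2.84 and Actn1 at 2.73; several genes near the dashed line turn sign under other scalings or in edgeR.

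Of 31 integrin adaptors and focal adhesion proteins, 29 were tested. In cisplatin against vehicle kidneys 22 were higher, 3 lower and 4 did not pass, where 56.3% of all genes tested were higher and 21.8% lower. The split of 22 higher and 3 lower depends in part on scaling. With median-of-ratios scaling the calls of Parva, Parvb, Ptk2, Ptk2b, Nedd9, Tns3, Actn4, Itgb1bp1 and Sharpin were lost. Rsu1 (-0.27) and Lims2 (-0.17) then passed as lower. These genes are named after their values were seen. The median of the list was 0.38 beside 0.26 over all genes. Actn1, an actin crosslinker of adhesion sites, rose by 2.73 (70.20, 65.44 and 9.02 FPKM in combination, cisplatin and vehicle kidneys). Vasp, which promotes actin filament growth, rose by 1.73 (39.23, 36.44 and 10.35 FPKM) and the kinase Src by 1.21 (22.11, 19.98 and 8.06 FPKM). The 3 lower genes were Tln1, Tln2 and Tns1, named after their values were seen. Tln2, 1 of the talins that bind beta chain tails and switch integrins on, fell by 2.84 (3.24, 3.25 and 29.37 FPKM, adjusted p = 2.97e-10), and Tln1, the other talin, by 0.35 (29.32, 27.44 and 35.34 FPKM). Tns2, the most abundant gene of the list that passed in neither comparison, averaged 30.47, 28.51 and 32.94 FPKM (-0.21 in cisplatin against vehicle, adjusted p = 0.068). It passed as lower under 7 alternatives: median-of-ratios scaling (-0.49), quantile normalization (-0.37), edgeR (-0.53), the fit of those 2 groups, and without combination library 1 or 4 or cisplatin library 2 (-0.27 to -0.21). Among the 22, named after their values were seen, Parva, Actn4 and Sharpin turned sign with median-of-ratios scaling, Parvb under quantile normalization, and Parva, Actn4, Ptk2, Nedd9 and Tns3 in edgeR on 10 libraries; Ptk2 was at 0.00 under quantile normalization. Lims2, which encodes PINCH2, a partner of integrin-linked kinase, was higher in combination than in cisplatin kidneys by 0.35 (58.64 against 45.68 FPKM, adjusted p = 0.0271), a call lost in 9 of the alternatives tried, with adjusted p up to 0.102, among them leaving out combination library 1, 2 or 4 or cisplatin library 1, 3 or 4.

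Of 21 integrin ligands, 15 were tested. In cisplatin against vehicle kidneys 12 were higher, 1 lower and 2 did not pass, where 56.3% of all genes tested were higher and 21.8% lower. Their median was 1.45 beside 0.26 over all genes. Spp1, osteopontin, an RGD ligand of αv integrins, averaged 7583 FPKM in combination kidneys, 9359 FPKM in cisplatin kidneys and 450.3 FPKM in vehicle kidneys and rose by 4.35 (adjusted p = 1.2e-10). Icam1, a ligand of leukocyte β2 integrins, averaged 67.51, 67.48 and 6.94 FPKM and rose by 3.11, and Ccn1, a matricellular ligand of αv integrins, averaged 221.1, 198.4 and 17.61 FPKM and rose by 3.43. Icam2, an endothelial ligand of β2 integrins, fell by 0.66, and Npnt and Fbln5 did not pass; Icam2 and Fbln5 are named after their values were seen. Fbln5 was at -0.50 (adjusted p = 0.0554) and passed as lower under 8 alternatives: the replicate block, median-of-ratios scaling (-0.78), quantile normalization (-0.69), edgeR (-1.13), limma on 10 libraries (-0.80), and without cisplatin library 2 or vehicle library 1 or 4 (-0.69 to -0.60). None of the 15 passed in combination against cisplatin kidneys in limma, where 2.21% of all genes tested passed. Of 6 transcriptional repressors of E-cadherin, 3 were tested: Snai1 rose by 0.54 (2.30, 2.22 and 1.21 FPKM), Zeb1 by 0.34 (1.96, 2.13 and 1.47 FPKM), and Zeb2 did not pass (-0.08). Zeb2 passed as lower with median-of-ratios scaling (-0.29), quantile normalization (-0.44) and edgeR (-0.54). Neither call of Snai1 and Zeb1 held in edgeR (adjusted p = 0.113 for Snai1 and 0.0509 for Zeb1) or under quantile normalization, nor did that of Zeb1 with median-of-ratios scaling.

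Some reads of these genes could belong to overlapping genes, since no source used here states strandedness. In the GENCODE M21 annotation, 7.66% of the exonic bases of Itgb4 overlap B230344G16Rik, 5.90% of Itgav overlap Gm13684 and 5.05% of Itga8 overlap E030013I19Rik, all on the opposite strand, and 3.68% of Itga1 overlap Gm49395 on the same strand. Among members outside the test, 33.5% of Itga10 overlap Gm42957 on the same strand and 8.04% of Itga4 overlap Cerkl on the opposite strand. The sources used here do not name the annotation the authors used.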

How the data were processed

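Kidney RNA sequencing of 12 libraries was used, 4 per group, grouped by the treatment label. The submitters' processing notes list RSEM 1.2.12, HISAT2 2.0.4 and Bowtie2 2.2.5 with no role for any of them, and the sources used here do not state the build, the annotation, the kit or whether it kept strand. The authors deposited FPKM for all 12 libraries, rounded to 2 decimals, and unnormalized estimated counts (34.3% of them not whole) in columns that name 10 libraries per the file headers. A further 14 per-sample columns with missing or displaced headings were not used, so cisplatin libraries 1 and 2 had no count column. No FPKM columns were identical, and same-group libraries differed by more than sampling noise in their counts (chi-square per degree of freedom at least 4.34).

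The 12428 genes that reached 1 FPKM in 4 or more libraries were fitted on the log2(FPKM + 1) scale with limma 3.58.1 in R 4.3.3 (3 group means, 12 libraries, 9 residual degrees of freedom, mean trend), two-sided, with Benjamini-Hochberg adjustment within a comparison and a threshold of 0.05. The pseudocount makes differences of low genes smaller than their ratios. Errors are SD for FPKM and standard errors for differences; intervals are 95%. Libraries are labelled as biological replicates, and p-values measure the spread between them.

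Alternatives were median-of-ratios, TPM and quantile scaling, the pseudocount set to 0.1, no filter on low values, a filter at a mean of 5 FPKM, the replicate number as a block, fits of only the groups compared, leaving out each library, edgeR 4.0.16 (quasi-likelihood) on the rounded estimated counts of 10 libraries, limma on the same 10, and, added after seeing the data, a mean FPKM of at least 1. In simulated data for the comparison of cisplatin with vehicle, few genes were changed, whereas 78.1% of genes passed in the real comparison. Of 67 genes changed 1.5-fold, limma recovered 58 (86.6%) among 12428 genes and edgeR 56 (83.6%) among 14001. Of 67 changed 2-fold, each recovered 97%. For limma, changes were added on the log2(FPKM + 1) scale to genes with a vehicle mean above 1 on that scale. Cdh24, Itgb3, Itgb4 and Cdh6 lay below that level, so the limma rates do not cover them.

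Members and lists were chosen with earlier results of these data known. Per-library values are given for members with a group mean of at least 20 FPKM and for the 8 with the largest passing differences in cisplatin against vehicle; every other member tested is given by group means or ranges, and members outside the test are named where 1 library reached 1 FPKM. In each partner list the 3 passing genes with the largest moderated statistic, genes passing in combination against cisplatin, and the most abundant gene passing in neither are named. In the list of ligands the gene passing in neither is Npnt; partner genes named for a lower call, a turned sign or a lost call fall outside the rule and were chosen after their values were seen. Promoters come from RefSeq on GRCm38.p6.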

Additional observations from a re-analysis of the deposited data

Results flagged for a closer look

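In 69 groups of 4 libraries, 1 for each of the 23 tested members in each treatment group, the highest or lowest library was compared with its nearest neighbour by Dixon's ratio at the 95% level. Chance alone marks about 1 group in 20, and 5 groups were marked. Itgb8 was 4.00 FPKM in cisplatin library 1, where the other cisplatin libraries ran from 1.87 to 2.10 FPKM. Cdh11 was 5.34 FPKM in combination library 4, above 3.86 to 4.08 FPKM in the other combination libraries. Cdh3 was 4.93 FPKM in cisplatin library 2, above 4.24 to 4.35 FPKM in the others of that group. Itga6 was 11.98 FPKM in vehicle library 3, above 9.58 to 9.87 FPKM, and Itga9 was 1.92 FPKM in vehicle library 2, above 1.41 to 1.42 FPKM. All 5 marked libraries were the highest of their group, and they belong to 5 different libraries.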

How the results depend on the processing

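In cisplatin against vehicle, 19 members higher became 7 with a mean FPKM of at least 5, where 9 members were tested. Fewer were also higher with quantile normalization, where the calls of Cdh2, Cdh24, Cdh6, Itga2b, Itga9 and Itgb2 were lost. The 2 lower members became 5 without a filter, 1 with a mean FPKM of at least 5 and 1 with a mean of at least 1, 4 with median-of-ratios scaling, 4 with quantile normalization and 8 in edgeR, which tested 32 members. In combination against vehicle, 19 higher became 7 with a mean FPKM of at least 5 and 12 with quantile normalization, and 3 lower became 7 without a filter, 1 with a mean FPKM of at least 5 and 10 in edgeR. In combination against cisplatin the 275 genes called became 176 in the fit of those groups alone and 152 to 298 when a library was left out, with 158 without combination library 2, 152 without combination library 3 and 178 without cisplatin library 4; the members called stayed at 0 in every alternative tried.

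Signs turned under quantile normalization for Cdh6 (-0.017 in cisplatin and -0.153 in combination against vehicle), Itga2b (-0.124 and -0.09), Itga9 (-0.023 and -0.081) and Itgb2 (-0.017 in cisplatin against vehicle). Itgb5 in combination against vehicle was -0.27 with median-of-ratios scaling, -0.13 with quantile normalization and -0.32 in edgeR. Beyond these, calls were lost with quantile normalization for Cdh2, Cdh24 and Itga1 and with a scaling or edgeR for Cdh11. The call of Itga9 in combination against vehicle was also lost without combination library 2, 3 or 4 or vehicle library 1, 3 or 4 (0.21 to 0.24).

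Same-numbered combination and cisplatin libraries correlated at 0.56, 0.25, 0.37 and -0.24 for numbers 1 to 4, and the 8 pairs with vehicle libraries from -0.08 to 0.08; since not every pair was above 0.1, the numbers were not taken to pair the samples. With the replicate number as a block, 9696 genes were called in cisplatin against vehicle, 9826 in combination against vehicle and 316 in combination against cisplatin, with 19 members higher and 2 lower, 19 and 3, and 0 and 0. Of the 4 combination libraries, 2 correlated best with the cisplatin library of their own number, and of the 4 cisplatin libraries 3 with the combination library of theirs.

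Depth limits the low members: estimated counts over 10 libraries ran from 47 to 168 for Itgb8, 16.1 to 234 for Itgb3 and 11 to 103 for Cdh13. PCR copies cannot be told from separate molecules in these counts.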

Other observations

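Cdh17, an intestinal cadherin, was at 0 FPKM in all 4 vehicle libraries and at 0.14 to 0.22 FPKM in combination libraries and 0.09 to 0.18 FPKM in cisplatin libraries. Cdh20 ran from 0.02 to 0.06 FPKM in combination libraries, 0.01 to 0.05 FPKM in cisplatin libraries and 0.07 to 0.12 FPKM in vehicle libraries. Itgae, the alpha chain of the E-cadherin receptor of intraepithelial lymphocytes, ran from 0.07 to 0.19, 0.19 to 0.29 and 0.20 to 0.33 FPKM in the same order. Itga4, Itgal and Itga10 ran from 0.31 to 0.86 FPKM over the 12 libraries. These genes were named after their values were seen.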
